A study of Mus musculus with 4 samples.

Results

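The comparison described here is I3C alone against Vehicle, the pair of arrays from mice without colitis, and its members are the 30187 genes that pair with a probe set of 1 gene symbol. It rests on 2 of the 4 arrays of the study, Vehicle and I3C, and the remaining arrays, TNBS + Veh and TNBS + I3C, are given beside them for the same genes. All groups were female BALB/cJ wildtype animals aged 8 to 10 weeks. I3C mice received indole-3-carbinol at 40 mg/kg by intraperitoneal injection in 100 µL daily up to day 5, and Vehicle mice received the DMSO/corn oil solvent in 100 µL. Neither group received TNBS, but both were given 50 µL of 60% ethanol into the rectum, so Vehicle is not an untouched colon. The colitis groups were given 1 mg of TNBS, a hapten that sets off colitis, in the same ethanol, with the solvent (TNBS + Veh) or with I3C (TNBS + I3C). Colonic epithelial cells (CECs) enriched for EPCAM were pooled over the mice of a group and hybridized to 1 Clariom D mouse array. The labels name the cells as colonic epithelium, although their RNA extraction note names whole colon. With 1 array a group there is no replicate error, so every difference below is a description of these pools, with no test.

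I3C is a compound of cruciferous vegetables whose acid products bind the aryl hydrocarbon receptor (AhR). Ligand-bound AhR enters the nucleus, pairs with ARNT and binds short DNA elements near target genes, of which Cyp1a1 is the best known, while AHRR and TIPARP restrain the receptor. In the colon, absorptive colonocytes take up salt, water and short-chain fatty acids, and goblet cells, which arise from precursors that switch on Atoh1, secrete MUC2 and other proteins that form the mucus layer.

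Values are log2 signals, and differences are I3C minus Vehicle on the log2 scale, where 1.00 is 2-fold. Signals at or below 5.43 were counted as background and raised to that level, and 15362 genes, of them 10120 protein-coding, lay above it in at least 1 of the 2 arrays. The other 14825 genes did not. For 1185 genes only 1 of the 2 arrays was above background, so the direction of their difference was fixed by this filter. Where 4 values follow each other, Vehicle comes first, then I3C, TNBS + Veh and last TNBS + I3C, while 2 values for a gene are Vehicle followed by I3C. For the colitis pair the order is TNBS + Veh, then TNBS + I3C. A signal is set only against the same probe set in another array, never against another gene. At the bright end the scale stopped at 19.93, and 19 of the 20 coding genes with a mean above 19 read the same in both arrays, so changes there could not be measured. Over coding genes above background the differences had a median of -0.02 and an SD of 0.215, against an SD of 0.448 for TNBS + I3C minus TNBS + Veh in the colitis pair. The median was 0.01 for coding genes with a mean of 5 to 7 and lay between -0.08 and -0.12 for those with a mean of 9 to 17, so bright genes sat slightly lower in I3C as a whole.

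The labelled cell type was checked against its markers. Epcam read 17.06, 16.91, 17.06 and 17.13, and 17 of 18 epithelial markers were above background. Of these, 14 were lower and 2 higher in I3C. Their median was -0.16, against -0.12 for coding genes with a mean of 13 to 15, where the list's median signal of 13.85 lies. Among markers of other cells, 11 of 19 genes of T cells and intraepithelial lymphocytes were above background, and all 11 were higher in I3C, with a median of 0.23 and a summed signal of 1105 in Vehicle and 1270 in I3C. The largest was Cd3e, a subunit of the T cell receptor complex, at 5.63 and 6.23, while Cd3d, Cd4 and Cd8b1 were at background. Of 19 macrophage and dendritic cell genes, 6 were above background and all 6 were higher in I3C (summed signal 894 and 1080). In Vehicle only 5 were above background, so a gene that passed only through I3C could not have been lower. Beside both lists, 44.3% of all coding genes above background were higher. The median of these 6 genes was 0.36, with a range of 0.03 to 0.42 over the alternatives of processing. Lyz2 led them at 6.74 and 7.36, with Adgre1, C1qa and Csf1r at background. Most of these values lie within 1.5 of the background level. In bulk pools, more cells of a type and more RNA per cell cannot be told apart, and the part of these cells in the results below was not tested.

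At 2-fold, 42 genes were higher and 16 lower in I3C, or 0.273% and 0.104% of those above background. Without raising dim values to the background level, the counts were 58 and 76, so the excess of higher genes at this threshold depends on how dim values were treated. Among coding genes, 22 were higher (0.217%) and 9 lower (0.0889%), and at 1.5-fold 106 were higher (1.05%) and 93 lower (0.919%). At the edge of the 2-fold threshold, Lyz1 at 1.00 was just inside and Rnf186 at 0.99 just outside among higher genes, and Ugt2b5 at -1.0 and Slc51b at -0.98 lay on either side among lower genes. The 22 higher coding genes held 7 members of the goblet cell list and 3 of the mucin glycosylation and sulfation list, and the 9 lower ones held Fabp2, Emp1, Aldh1a1 and Lrat of the absorptive and retinoid lists. The plot of difference against signal shows both tails.

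**Figure D1:**
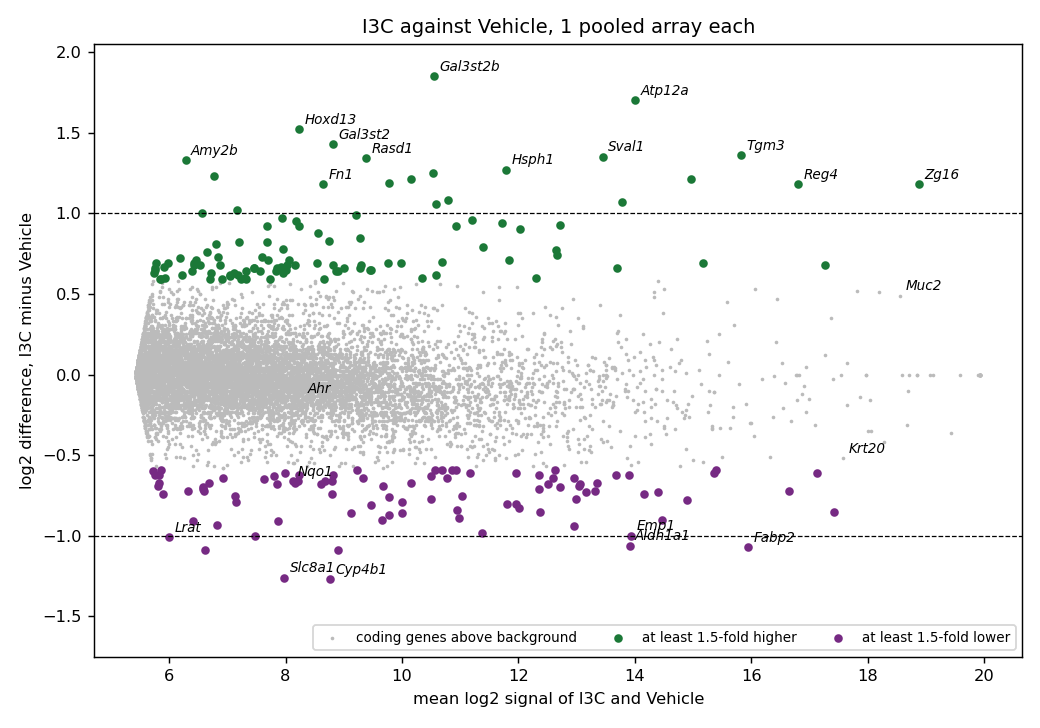
Log2 difference, I3C minus Vehicle, against the mean log2 signal of the same 2 arrays, for the 10120 coding genes above background (1 point a gene, dashed lines at 2-fold). Gal3st2b at 1.85 and Atp12a at 1.70 are the highest points, Cyp4b1 at -1.27 and Slc8a1 at -1.26 the lowest, and Zg16 is the brightest gene past 2-fold.

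Goblet cell genes were the list that stood highest in I3C. Of 37 listed genes 34 were above background, and 29 of these were higher in I3C and 4 lower, where 44.3% of all coding genes above background were higher. At 1.5-fold 12 were higher and none lower, and at 2-fold 7 were higher. The median was 0.45, against -0.02 over all coding genes and -0.08 over those with a mean of 9 to 11, where the list's own median signal of 9.96 lies. I3C was the highest of the 4 arrays for 22 of the 34, where this held for 15.5% of all coding genes. Markers of goblet cells that the study itself showed on these samples, such as Tff3, are in this list, so it is not independent evidence of its direction.

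Among transcription factors of the lineage, Atoh1, which commits intestinal precursors to secretory fates, read 9.55 in Vehicle and 10.76 in I3C, a difference of 1.21. In the colitis pair it read 8.78 and 9.80, so I3C arrays were the higher in both pairs and the I3C array was the highest of the 4. Creb3l1, a membrane-bound transcription factor of secretory cells, read 10.73 and 11.69 but ran the other way in colitis, at 11.51 and 10.72. Spdef and Foxa3, which act after Atoh1 in goblet cell maturation, differed by only 0.29 and 0.46. Klf4, found in goblet cells and in surface colonocytes, read 14.33 and 13.79, a difference of -0.54 and the lowest of the list.

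The products of secretory cells varied widely. Zg16, a lectin of the mucus that binds bacteria, read 18.29 in Vehicle and 19.47 in I3C, a difference of 1.18 that ends near the top of the scale. Tff3, the trefoil peptide stored with mucin, read 13.24 and 14.31, and Spink4, a protease inhibitor of goblet cells, read 14.36 and 15.57. Reg4, a lectin of deep crypt secretory cells held in the surface and wound epithelium list, read 16.21 and 17.39. Fcgbp, a large protein that is bound to the mucus gel, read 12.30 and 13.04, and Best2, an anion channel of colonic goblet cells, read 9.18 and 10.37. Sval1 read 12.77 and 14.12 and Ccl6, a chemokine, 9.90 and 11.15. These 8 genes were higher in the I3C pool by 0.74 to 1.35. Other secreted products of the list differed less or were lower, at 0.47 for Clca1, 0.44 for Retnlb, 0.19 for Clca3b, -0.32 for Mptx1 and -0.36 for Guca2a. In colitis the same genes split: Sval1 (2.19), Fcgbp (2.39), Ccl6 (1.19), Reg4 (0.85), Tff3 (0.58) and Zg16 (0.56) were higher with I3C, while Best2 (0.10) and Spink4 (-0.02) were almost level.

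The mucins themselves moved less. Of 14 listed mucin genes with a probe set, 8 were above background, 5 of them higher and 1 lower. Muc2, which encodes the main gel-forming mucin, read 18.31, 18.80, 18.28 and 18.38, so its difference of 0.49 did not reach 1.5-fold, and it lies close to the bright end of the scale. Muc3a, annotated as a membrane-bound mucin, went the other way, at 14.92 and 14.02, a difference of -0.90 and the only mucin past 1.5-fold. Muc13 and Muc3, also membrane-bound, read 19.90 and 19.93 in all 4 arrays and could not be compared. Muc1 (0.14), Muc4 (0.11), Muc19 (0.24) and Muc20 (0.15) were nearly level. The mucin list was one the study showed for these samples and is not an independent choice.

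**Figure D2:**
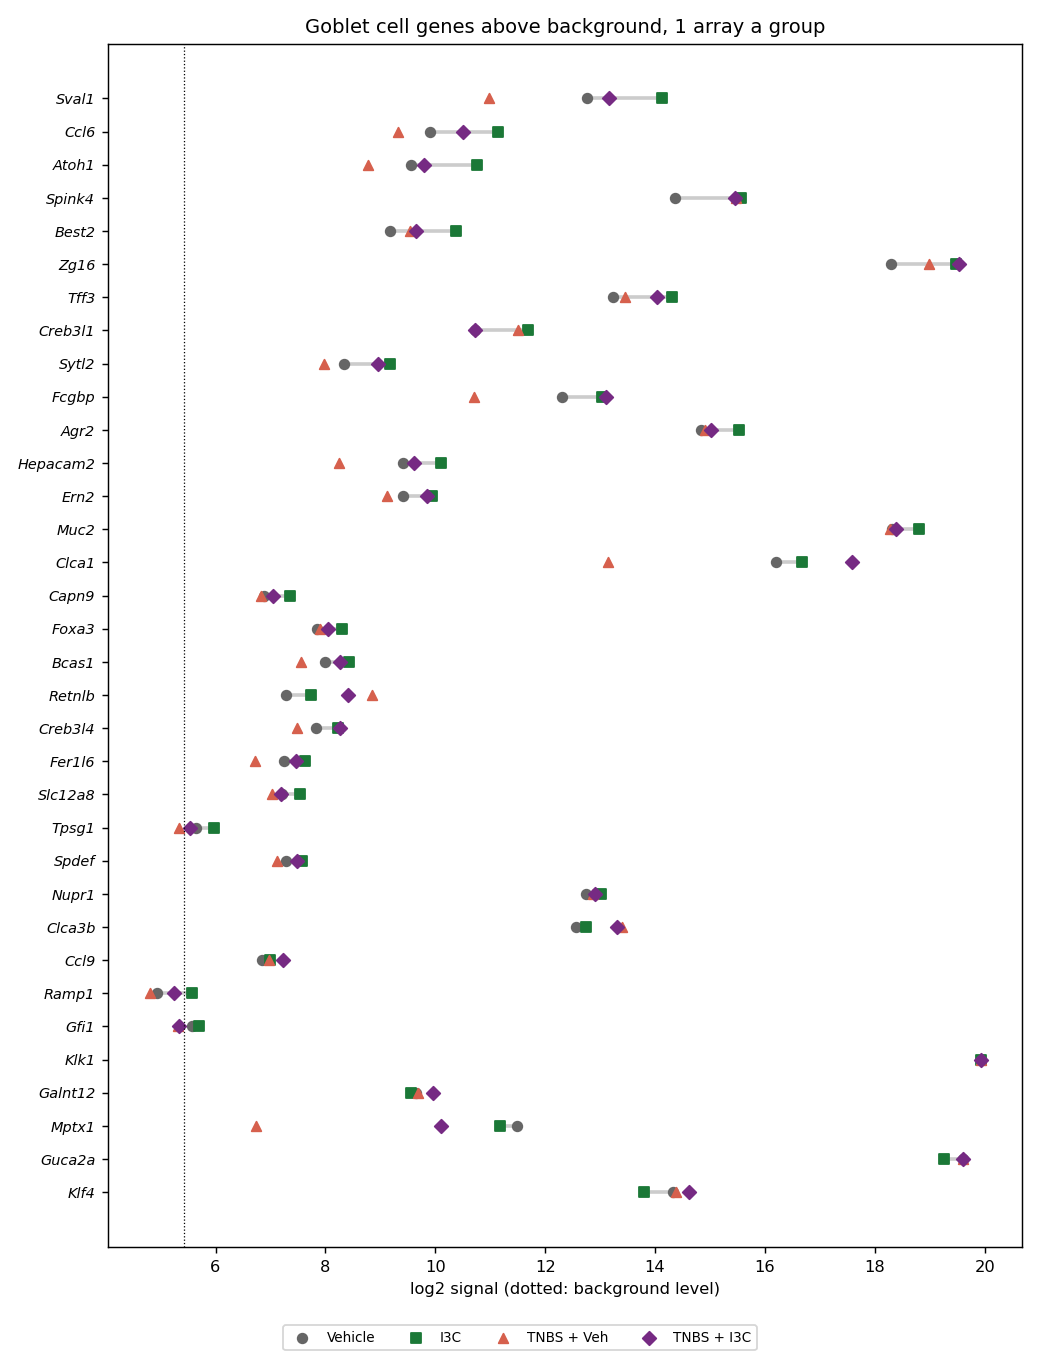
Log2 signal of the 34 goblet cell genes above background in the 4 arrays (1 point an array, grey bar from Vehicle to I3C, dotted line at 5.43), ordered by I3C minus Vehicle. I3C is the highest of the 4 arrays for 22 genes, from Sval1 at the top, while Klf4, Guca2a, Mptx1 and Galnt12 at the bottom are lower in I3C than in Vehicle.

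Enzymes that build and sulfate mucin sugars differed as single genes rather than as a group. Of 43 such genes above background, 26 were higher and 17 lower, with a median of 0.05, and 6 were at least 1.5-fold higher and 1 lower. Over all coding genes above background 44.3% were higher, and at 1.5-fold 1.05% were higher and 0.919% lower. Coding genes with a mean of 7 to 9, where the list's median signal of 8.68 lies, had a median of -0.03. Gal3st2b, which adds sulfate to galactose on glycans, gave the largest difference of all coding genes, at 9.63, 11.48, 8.95 and 10.30. Its near copies Gal3st2, at 8.10 and 9.53, and Gal3st2c, at 6.07 and 6.71, were also higher. The 3 genes are close paralogs and may share probe signal, so they may not be separate events. The counts given here still take each as a gene of its own. St6gal1, a sialyltransferase, read 6.66 and 7.68, and Chst4, a sulfotransferase of N-acetylglucosamine, read 7.70 and 8.65. B4galnt2, which makes the Sda blood group sugar of the colon, was the exception at 17.01 and 16.29. The endoplasmic reticulum machinery that folds secreted proteins was higher in 22 of 30 genes and lower in 6. Its median was 0.11, against -0.08 for coding genes with a mean of 9 to 11, where its median signal of 9.62 lies. Its 3 members past 1.5-fold were all disulfide isomerase family members, Agr2 (14.83 and 15.52), which is needed for MUC2 processing and is in the goblet cell list too, Pdia6 (9.14 and 9.79) and Pdia5 (8.54 and 9.18).

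Genes of absorptive colonocytes did not stand apart as a list, but held several of the lowest genes. Of 38 above background, 10 were higher, 21 lower and 7 equal in the 2 arrays, with a median of -0.14 against -0.12 for coding genes with a mean of 13 to 15, where the list's median signal of 13.98 lies. At 1.5-fold 6 members were lower and 1 higher. Over all coding genes the shares were 0.919% and 1.05%, but bright genes differed more, and of the 192 with a mean of 13 to 15, 13 were lower and 5 higher. Fabp2, the intestinal fatty acid-binding protein, read 16.48 in Vehicle and 15.41 in I3C, and Emp1, an epithelial membrane protein, read 14.44 and 13.44. Slc51b, a subunit of the basolateral bile acid exporter, read 11.86 and 10.88, while its partner Slc51a read 7.48 and 7.31. Cyp2c65, a cytochrome P450 of the gut, read 13.42 and 12.48. Slc9a3, the apical sodium/proton exchanger, read 15.66 and 15.05. Other genes of mature surface cells among the 20 lowest were Alpi, intestinal alkaline phosphatase (10.43 and 9.57), Slc13a1, a sulfate transporter (10.21 and 9.34), and Phgr1 (10.10 and 9.20). Among list members that were higher in I3C, Anpep, the only member at least 1.5-fold higher, read 6.48 and 7.21. Saa1 (0.58) and Slc37a2 (0.55) were higher by less. Several of the best known markers, such as Car1, Lypd8 and Ceacam1, were at the top of the scale in both arrays and could not be compared.

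Retinoid metabolism held 2 of the 9 coding genes past 2-fold lower. Of 29 genes above background, 22 were lower and 7 higher in I3C, where 52.6% of coding genes were lower, and 4 were at least 1.5-fold lower and none higher. The median was -0.11, against -0.03 for coding genes with a mean of 7 to 9, where the list's median signal of 7.26 lies. Aldh1a1, which oxidizes retinal to retinoic acid, read 14.44 in Vehicle and 13.38 in I3C. Its paralog Aldh1a7 read 8.95 and 8.27 and may share its probe signal. Lrat, which stores retinol as esters, read 6.51 and 5.50, but its I3C value is at the edge of background. Dhrs9, a retinol dehydrogenase, read 6.93 and 6.22. Adh1, an alcohol dehydrogenase that also acts on retinol, ran opposite at 17.94 and 18.45. In the colitis pair Aldh1a1 was 0.41 and Lrat 0.18 higher with I3C, so neither was lower in both pairs.

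Genes for burning fatty acids and making ketones were lower in small steps. All 39 listed genes with a probe set were above background, 33 of them lower and 5 higher, with a median of -0.13 against -0.08 for coding genes with a mean of 9 to 11, where the list's median signal of 10.19 lies. The 3 lower by 1.5-fold were Pdk4, the kinase that turns off pyruvate dehydrogenase (14.53 and 13.79), Cpt1a, the gate to mitochondrial fatty acid import (13.68 and 13.01), and Hadha of the trifunctional protein (12.93 and 12.34). Pparg, a nuclear receptor for fatty acids in the colon that was chosen after its values were seen, read 12.43 and 11.60. Acot2, a mitochondrial acyl-CoA thioesterase, was the exception at 10.05 and 11.11, and its close paralog Acot1 read 7.44 and 7.40. The cholesterol and fatty acid synthesis list had a like median of -0.14, with 16 of 23 genes lower, but only 1 past 1.5-fold. Its median signal of 9.28 lies in the same range of 9 to 11, where coding genes had a median of -0.08. Beside both lists, 52.6% of all coding genes above background were lower, and 0.919% at least 1.5-fold lower. In the colitis pair, 22 of the 39 oxidation genes were lower with I3C and 16 higher, with a median of -0.02.

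**Figure D3:**
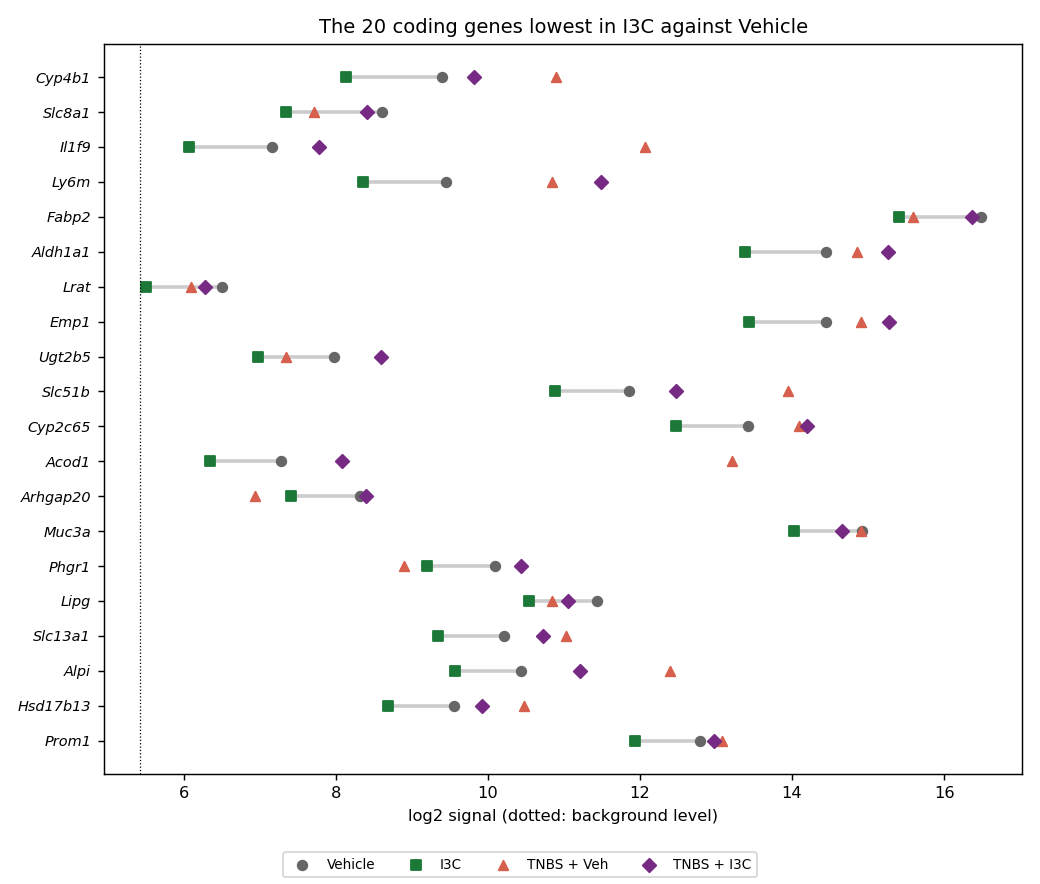
Log2 signal in the 4 arrays of the 20 coding genes lowest in I3C against Vehicle (1 point an array, grey bar from Vehicle to I3C, dotted line at 5.43). I3C is the lowest of the 4 arrays for 18 of the 20, the exceptions being Arhgap20 and Phgr1, where TNBS + Veh is lower, although the choice of genes favours this.

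Ion transport split in both directions. Atp12a, the alpha subunit of the colonic proton/potassium pump, read 13.15 in Vehicle and 14.85 in I3C, a 3.25-fold difference, and it was also higher in colitis, at 12.52 and 13.51. Slc8a1, the sodium/calcium exchanger, read 8.61 and 7.35, and 7.72 and 8.41 in the colitis pair, the reverse direction. Of 36 ion transport genes above background 15 were higher and 18 lower, with a median of -0.01. Cftr, the chloride channel (10.95 and 10.37), and Clcn2, a basolateral chloride channel (11.22 and 10.63), were lower, and Kcnma1, a potassium channel (6.53 and 7.21), and Prss8, a protease that activates the epithelial sodium channel (8.58 and 9.22), were higher.

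The heat shock list had a set of stress-induced chaperones that were higher in I3C. Of 25 genes above background, 15 were higher and 8 lower with a median of 0.12, and 6 were at least 1.5-fold higher and none lower. Over all coding genes above background 44.3% were higher, and 1.05% were at least 1.5-fold higher. Coding genes with a mean of 9 to 11, where the list's median signal of 9.03 lies, had a median of -0.08. Hsph1, a large chaperone of the HSP110 family, read 11.15, 12.42, 9.42 and 8.97. Hspa1a, the inducible HSP70, read 12.25, 13.18, 10.68 and 9.86, and its near-identical copy Hspa1b may contribute to that signal. Hsp90aa1, the inducible HSP90, read 15.79, 16.32, 14.47 and 13.96, a difference of 0.53 without colitis that is below 1.5-fold. For these 3 genes both arrays without colitis were above both colitis arrays, and the direction of I3C against its own control was opposite in the 2 pairs. Bag3, an HSP70 cochaperone (7.70 and 8.41), Dnajb1, an HSP40 (10.33 and 11.03), Dnaja4 (7.0 and 7.64) and Hspb1, a small heat shock protein (5.82 and 6.54, close to background), were the 4 members past 1.5-fold besides Hsph1 and Hspa1a. The constitutive members differed less, at -0.05 for Hspa4 and -0.16 for Hspa9, and Hspa8 was at the top of the scale.

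Heat shock factor 1 binds repeats of GAA in alternating orientation, and the letters GAANNTTC, which read the same on both strands, were searched in the 300 bases of RefSeq promoters (GRCm38.p6) from 250 before to 50 after each start. Counting genes with a match at any start, they occurred in 9.04% of all genes with a promoter and 7.27% of coding genes above background that had one. They occurred in 10 of 21 heat shock list genes with a promoter (47.6%). Of the 6 members past 1.5-fold, Hsph1, Hspa1a, Bag3, Hspb1 and Dnaja4 held a match and Dnajb1 did not. The matches of Hsph1 and Bag3 were not in the part before the start. The 250 bases before the start of Hspa1a and Hspb1 are shown as 2 examples with the matches there, in capitals.
Hspa1a, chr17:34972157-34972406, minus strand: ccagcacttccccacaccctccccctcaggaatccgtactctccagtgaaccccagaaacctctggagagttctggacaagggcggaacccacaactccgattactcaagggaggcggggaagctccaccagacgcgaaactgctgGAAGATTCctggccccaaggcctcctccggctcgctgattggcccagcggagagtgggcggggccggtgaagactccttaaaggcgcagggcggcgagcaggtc
Hspb1, chr5:135887669-135887918, plus strand: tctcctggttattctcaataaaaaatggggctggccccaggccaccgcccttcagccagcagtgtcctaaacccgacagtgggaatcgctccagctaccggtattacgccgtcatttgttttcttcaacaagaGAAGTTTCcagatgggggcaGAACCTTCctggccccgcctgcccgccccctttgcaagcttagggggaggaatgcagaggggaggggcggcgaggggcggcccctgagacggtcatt
Hspa1a held 1 match and Hspb1 held 2. A match is a description of the letters, not evidence that the factor was bound.

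The AhR pathway itself held no gene at least 1.5-fold higher in I3C. Of 20 listed genes with a probe set 10 were above background, 3 of them higher, 6 lower and 1 equal, with a median of -0.11. Over all coding genes above background 44.3% were higher and 52.6% lower. Only 1.05% were at least 1.5-fold higher, so finding none among 10 genes says little about the pathway. Coding genes with a mean of 7 to 9, where the list's median signal of 8.28 lies, had a median of -0.03. The receptor, Ahr, read 8.37, 8.22, 8.21 and 8.23. Its partner Arnt read 8.35 and 8.17, and its feedback inhibitor Tiparp 9.02 and 8.84. Cyp1a1, the classic target, read 4.07, 4.00, 3.95 and 3.89, below the background level in every array. Cyp1a2, Cyp1b1, Ahrr, Aldh3a1, Ido1, Ido2, Tdo2 and Arnt2 were likewise at background in I3C and Vehicle, as was Il22 (4.38 and 4.76), the cytokine that AhR drives in lymphocytes, while its receptor chains Il22ra1 (-0.07) and Il10rb (0.00) were above background and level. Nqo1, a quinone reductase that AhR and NRF2 both induce, read 8.45 and 7.79, a difference of -0.66, and 7.42 and 9.15 in the colitis pair, the reverse. Nfe2l2, which encodes NRF2, read 10.53 and 10.07. Kyat1, an enzyme of the kynurenine route, read 7.45 and 7.67, Slc7a5, an amino acid carrier, 6.65 and 6.82, and Gsta2, a glutathione transferase, 7.23 and 7.27. Hsp90ab1, Ptges3, Ugt1a6a, Ugt1a6b and Gsta1 were not measured by a probe set of 1 symbol. Dim values do not show that a gene was not transcribed, only that it was not detectable on these arrays, and the labels do not state the hours between the last injection and collection.

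Other genes for drug and oxidant handling were mixed. Of 48 xenobiotic P450 and conjugation genes above background 28 were lower and 19 higher, with a median of -0.04 against -0.08 for coding genes with a mean of 9 to 11. At 1.5-fold 5 were lower and none higher, where 0.919% and 1.05% of all coding genes were. The highest members were Gstm3 (0.43) and Gstm1 (0.41), glutathione transferases, and the P450 Cyp2d9 (0.42). Cyp4b1, a P450 that oxidizes fatty acids and foreign compounds, was the lowest coding gene, at 9.40 in Vehicle and 8.13 in I3C (2.41-fold), and it was also lower in colitis, at 10.89 and 9.82. The others were Cyp2c65, Sult1d1, a sulfotransferase (14.76 and 14.03), Mgst2, a microsomal glutathione transferase (9.65 and 9.01), and Cyp2c66 (10.82 and 10.19). Of 18 NRF2 target genes 12 were lower and 5 higher, and the 3 past 1.5-fold, Nqo1, Gclc, the rate-limiting enzyme of glutathione synthesis (13.27 and 12.63), and Abcc3, a basolateral exporter (12.27 and 11.66), were all lower in I3C but higher with I3C in colitis, by 1.73, 0.54 and 0.94.

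The core letters of the AhR element, GCGTG, were searched on both strands in the same promoter windows. Counting genes with a match at any start, they occurred in 35.2% of all genes with a promoter and 54.4% of coding genes above background that had one. They occurred in 3 of the 15 coding genes past 2-fold higher that had a promoter (20%) and 4 of the 22 goblet cell genes that had one (18.2%). Both of the latter shares lie below that of coding genes as a whole, but so do those of the lower genes. These were 3 of 8 coding genes past 2-fold lower (37.5%) and 32 of 82 at least 1.5-fold lower (39.0%), beside 23 of 80 at least 1.5-fold higher (28.7%). The palindrome CACGTG occurred in 8.09% of all genes with a promoter and 11.7% of coding genes above background that had one. It occurred in 2 of the 15 coding genes past 2-fold higher (13.3%) and in 5 of the 80 at least 1.5-fold higher that had a promoter (6.25%). The stretches of Atoh1 and Muc2 are shown as those of the lineage factor and the mucin described above, with GCGTG or its complement CACGC in capitals.
Atoh1, chr6:64728875-64729124, plus strand: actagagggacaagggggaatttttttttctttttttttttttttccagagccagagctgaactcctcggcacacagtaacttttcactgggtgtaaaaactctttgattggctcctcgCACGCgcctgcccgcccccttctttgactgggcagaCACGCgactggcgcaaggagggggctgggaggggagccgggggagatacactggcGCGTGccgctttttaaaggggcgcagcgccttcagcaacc
Muc2, chr7:141690090-141690339, plus strand: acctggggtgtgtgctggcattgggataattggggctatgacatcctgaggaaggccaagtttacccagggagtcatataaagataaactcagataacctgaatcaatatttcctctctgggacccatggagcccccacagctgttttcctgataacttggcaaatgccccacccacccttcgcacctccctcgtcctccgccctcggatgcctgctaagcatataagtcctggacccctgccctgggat
The Atoh1 window held 4 matches, 3 of them before the start and so in the stretch shown, and the Muc2 window held none. No match in this window says nothing of elements farther away.

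Genes whose expression marks position along the gut differed in both directions. Hoxd13, the homeobox gene of the most posterior gut, read 7.47 in Vehicle and 8.99 in I3C, a 2.87-fold difference, but in colitis it was the lower with I3C, at 9.05 and 8.04. Hoxb13, another posterior gene, read 6.74 and 7.31, and Hoxa13 6.88 and 6.78. Hoxb5 (6.06 and 5.49) and Hoxb6 (7.01 and 6.59), which lie toward the anterior side of their cluster, and Cdx2, the master factor of intestinal identity (10.51 and 9.99), were lower in I3C, while Hoxa2, also an anterior gene (at least 0.38), Cdx1, a relative of Cdx2 (9.62 and 9.99), Hoxa6 (0.17) and Hoxa3 (0.11) were higher. The 16 genes of the list above background were 7 higher and 8 lower, with a median of -0.04. Over all coding genes above background 44.3% were higher and 52.6% lower. At 1.5-fold only Hoxd13 was higher and none lower, where 1.05% and 0.919% of all coding genes were. Amy2b, an amylase near background (5.62 and 6.95), and Lyz1, lysozyme of Paneth cells (6.06 and 7.06), were the 2 genes past 2-fold in the digestive and proximal gut list, in which 13 of 20 genes were higher and 6 lower.

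The proliferation and interferon response lists were close to level. Proliferation genes had a median of 0.04 over 25 genes, with none past 1.5-fold, and the interferon response had a median of -0.01 over 21 genes, again with none past 1.5-fold. Over all coding genes above background 1.05% were at least 1.5-fold higher and 0.919% lower, so finding none in so few genes says little. In the colitis pair the proliferation and interferon response lists stood at -0.58 and 0.69. Junction genes were lower in 19 of 23, where 52.6% of all coding genes above background were. The junction median was -0.16, against -0.11 for coding genes with a mean of 11 to 13. The lower junction genes differed in steps below 1.5-fold, while Cldn4, a claudin, read 11.24 in Vehicle and 12.18 in I3C. Rasd1, a small G protein induced by glucocorticoids, read 8.71 and 10.05, but the glucocorticoid list had no other member past 1.5-fold and a median of 0.04. Tgm3, a transglutaminase that crosslinks proteins, read 15.14, 16.50, 13.10 and 15.35. Il1f9, which encodes the cytokine IL-36 gamma, read 7.16 and 6.07, and Acod1, which makes itaconate, read 7.28 and 6.35. Both were far higher in TNBS + Veh, at 12.06 and 13.21, than in TNBS + I3C, at 7.78 and 8.08. Of 8 neutrophil genes above background 3 were higher and 5 lower, where 44.3% and 52.6% of all coding genes were. At 1.5-fold 2 were higher and 1 lower, beside the 1.05% and 0.919% given above. S100a9 (5.64 and 6.33) was higher and Retnlg (6.15 and 5.46) lower, both near background. Ly6g, well above background, was higher at 11.48 and 12.19. Fn1, fibronectin, read 8.06 and 9.24, but of the 8 fibroblast genes above background 5 were lower, Dcn among them (6.96 and 6.72), and besides Fn1 only Vim (6.63 and 6.87) was higher. Krt36, a keratin, read 6.16 and 7.39.

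**Figure D4:**
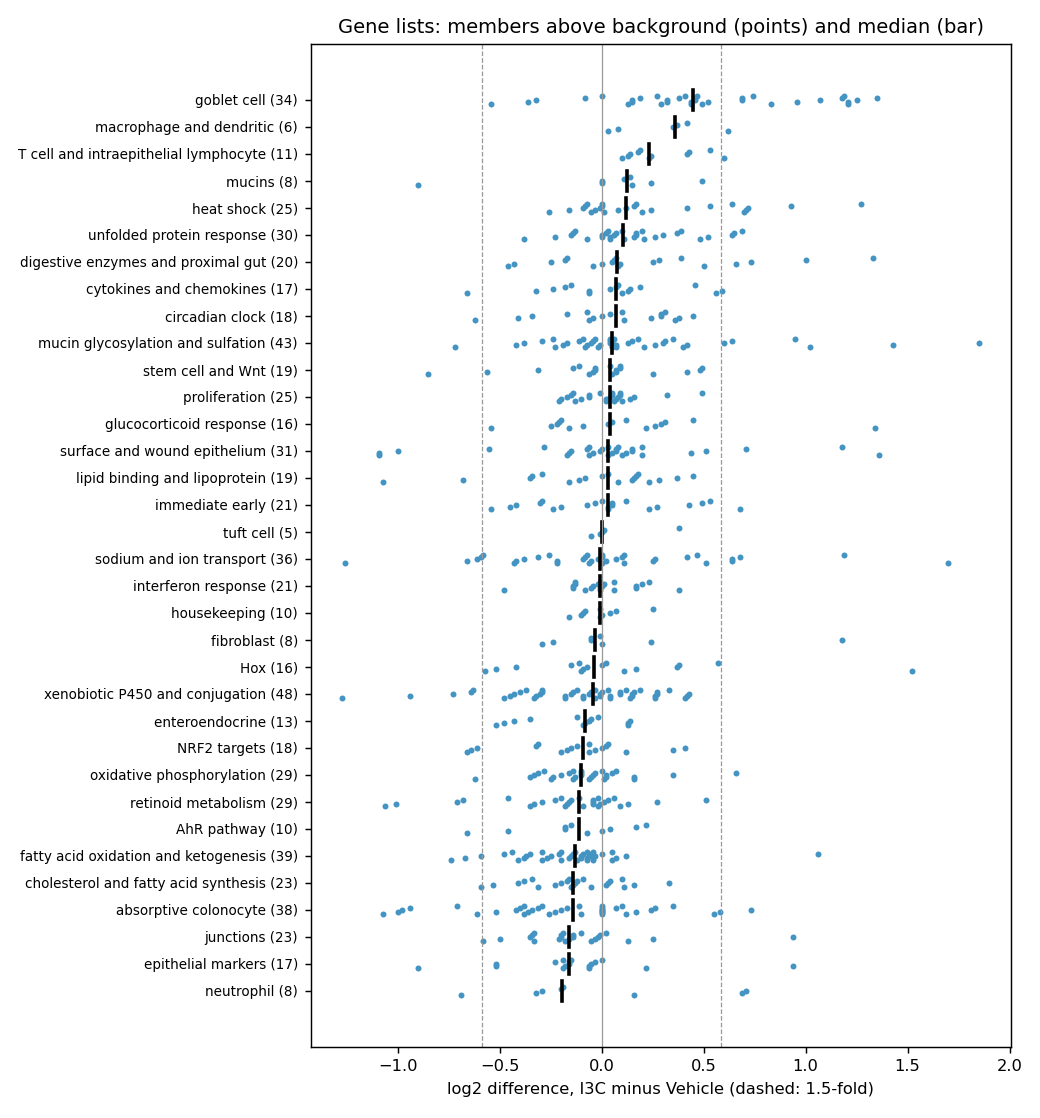
Log2 difference, I3C minus Vehicle, of the members above background of each gene list with at least 5 such members (1 point a gene, number in brackets, bar at the median, dashed lines at 1.5-fold). The goblet cell list has the highest median, 0.45, and the neutrophil list the lowest, -0.20, over only 8 genes with a median signal of 5.95.

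The colitis pair shares no array with I3C and Vehicle, so it gives each gene a separate pair of values. Of the 22 coding genes at least 2-fold higher in I3C, 16 were also higher with I3C in the colitis pair (72.7%), where 46.4% of all coding genes above background in both pairs were. Of these 16, 10 were past 1.5-fold, where 3.25% of all coding genes were: Gal3st2b, Atp12a, Gal3st2, Tgm3, Sval1, Rasd1, Ccl6, Atoh1, Reg4 and the predicted gene Gm1123. A further 3 were lower by 1.5-fold or more in the colitis pair, Hoxd13, Acot2 and Krt36. The lower genes did not carry over in this way. Of the 9 coding genes at least 2-fold lower in I3C, 2 were also lower in the colitis pair (22.2%), Cyp4b1 and Il1f9, where 51.2% of all coding genes were, and 4 were higher there by 1.5-fold or more, Slc8a1, Ly6m, Fabp2 and Ugt2b5. At 1.5-fold, 67 of 106 higher genes (63.2%) and 38 of 93 lower genes (40.9%) kept their direction. The goblet cell list stood at a median of 0.26 in the colitis pair, with 26 genes higher and 4 lower of the 32 above background in both pairs, and the absorptive list at 0.17.

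**Figure D5:**
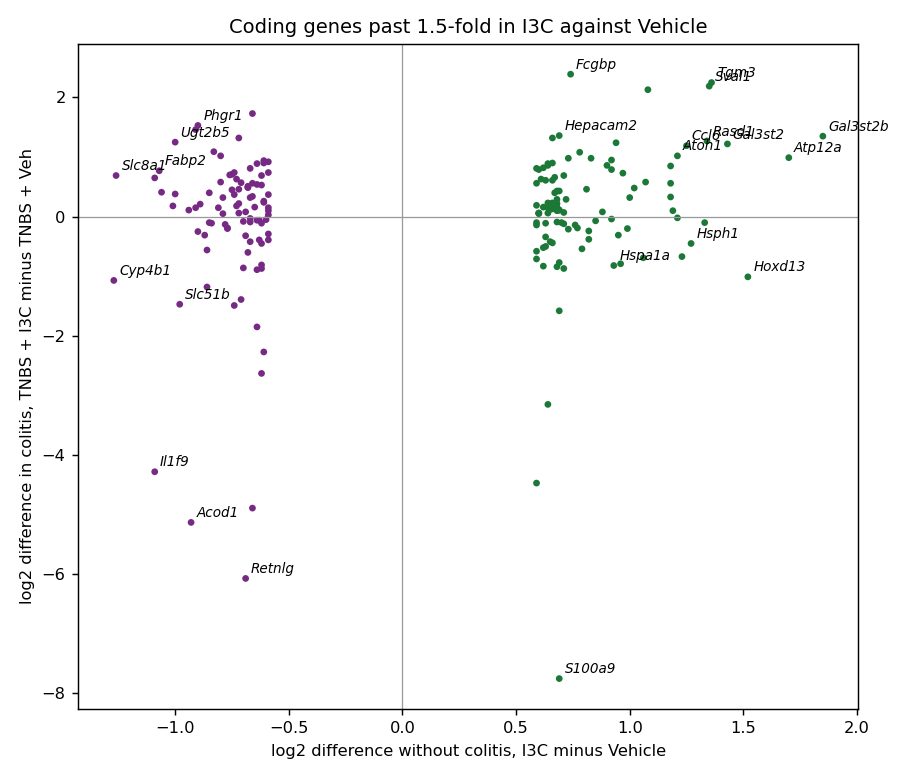
Log2 difference in colitis, TNBS + I3C minus TNBS + Veh, against the difference without colitis, I3C minus Vehicle, for the 106 higher and 93 lower coding genes past 1.5-fold in the latter (1 point a gene, higher in green, lower in purple). Gal3st2b, Atp12a, Tgm3 and Sval1 are higher in both pairs, Hoxd13 is higher only without colitis, and S100a9 and Retnlg lie far below 0 in colitis on either side.

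Noncoding genes made up a large part of the counts. Of the 324 genes at least 1.5-fold higher in I3C, or 2.11% of those above background, 106 were pseudogenes, 43 snRNA and 41 snoRNA genes, against 30, 3 and 14 of the 170 lower ones (1.11%). The 15362 genes above background held 10120 coding genes, 1.05% of them at least 1.5-fold higher and 0.919% lower. They also held 2672 pseudogenes, 701 snRNA and 626 snoRNA genes. Many of these exist in near-identical copies whose probe sets share signal. Snord37 (9.71 and 10.77) and Snord4a (9.50 and 10.49), guides of ribosomal RNA methylation, were the 2 snoRNA genes among the 5 named noncoding genes highest in I3C, a ranking that leaves out predicted genes, and were also higher with I3C in colitis, by 0.96 and 1.17. Of the 262 microRNA genes above background, 3 were at least 2-fold lower, Mir1198, Mir684-1 and Mir378c, and none was 2-fold higher. Over all genes above background 0.104% were at least 2-fold lower and 0.273% higher. Mir378c read 6.52 and 5.45, so its I3C value is at the edge of background. For Mir684-1 and Mir378c, the chromosome in the probe set's name differs from that of the gene, so their names are uncertain. Mir1198 read 7.05, 5.81, 7.31 and 6.89, and Mir3109 read 8.77, 7.82, 7.93 and 8.56. Their mature sequences in RefSeq (GRCm38.p6) are shown with the seed, bases 2 to 8, in capitals, as the identity of the lower microRNA genes whose position fits the probe set.
mmu-miR-1198-5p, chrX:7807142-7807163, plus strand: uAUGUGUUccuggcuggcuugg
mmu-miR-1198-3p, chrX:7807180-7807201, plus strand: aAGCUAGCcucuaacucauggc
mmu-miR-3109-5p, chr9:69456958-69456981, plus strand: aAUGGAUGcgaugguucccaugcu
mmu-miR-3109-3p, chr9:69456997-69457017, plus strand: uAGGGCCAucucauccagaua
The 4 seeds differ from each other. A probe set for a microRNA gene can also take up signal from the precursor, and the array does not tell the arms apart.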

How the data were processed

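RNA from EPCAM-enriched CECs, pooled by group, was measured on 1 Clariom D mouse array per group, and the authors deposited log2 signals with 2 decimals from the Transcriptome Analysis Console. Which normalization and genome build were used is not stated in the labels or methods. Of 65956 probe sets, 30649 pair with 1 gene symbol in the platform annotation (2165 with several and 33142 unnamed here were not used). Names were updated through the RefSeq gene table of GRCm38.p6 by gene number for 22603 probe sets and by symbol for 7714, and 332 kept theirs. For genes with several probe sets, the one of highest mean over the 4 arrays was taken. Background, 5.43, is the highest of the 4 arrays' 95th percentiles over 1721 olfactory and vomeronasal receptor probe sets, which ranged from 5.23 to 5.43. Array medians over all probe sets were 4.99 and 5.00 for Vehicle and I3C and 4.87 and 4.88 for the colitis pair.

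Genes were counted at 2-fold and 1.5-fold, with no test, since 1 array per group gives no error, and the number of arrays limits the precision. The counting was tested on simulated data. The members and the 40 gene lists were chosen with earlier results of these data known. Named are the 20 coding genes highest and lowest, without antigen receptor segments, sensory receptors and predicted genes, the 5 noncoding genes highest and lowest, up to 4 members of each list with the largest difference, and all AhR pathway and mucin genes. Gapdh, in that rule, has no probe set of 1 symbol. Other genes were named after their values were seen. Alternatives were quantile normalization, median centring, other choices of probe set, background treatment and threshold. Python 3.11.15, numpy 2.4.6, pandas 2.3.3 and matplotlib 3.10.9 were used.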

Additional observations from a re-analysis of the deposited data

Results flagged for a closer look

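Ugt2b5, a glucuronosyltransferase of a family with close copies that may share probe signal, was lower in I3C than in Vehicle (-1.0, 7.98 to 6.98) but higher with I3C in colitis (1.25, 7.34 and 8.59). Hoxd13 was higher in I3C without colitis (1.52) and lower with I3C in colitis (-1.01). The pseudogene Gm15368 was lower without colitis (-1.32, 10.38 to 9.06) and higher in colitis (1.86, 8.23 and 10.09). These 3 genes are past 2-fold in opposite directions in the 2 pairs. With 1 array a group the difference between the pairs was not tested.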

How the results depend on the processing

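No paired analysis was possible because each group has 1 array. Without raising dim values to the background level, 76 genes were at least 2-fold lower and 294 at least 1.5-fold lower, against 16 and 170. With no filter either, 93 were 2-fold higher and 96 lower, and 719 were 1.5-fold higher and 582 lower. Restricted to coding genes, the counts were 22, 9, 106 and 93, and at 3-fold 2 genes were higher and 0 lower. Quantile normalization, median centring and other choices of probe set kept these counts within 1.5 times. The goblet cell median ranged from 0.43 to 0.46 over the alternatives. The neutrophil median turned from -0.20 to 0.20 with the background level raised by 1, which leaves fewer genes. That alternative also reduced the difference of Lrat to -0.08, of Hspb1 to 0.11 and of Amy2b to 0.52, all near background. It likewise reduced the difference of Mir378c to -0.09 and of Mir1198 to -0.62. Of 1204 gene values recomputed, 1178 moved by less than 0.1.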
